A study of Mus musculus with 7 samples.

Results

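The Gstm cluster is the block of 7 mouse genes, Gstm1 to Gstm7, that encode the mu-class glutathione transferases. The members were chosen by gene symbol alone, as every row named Gstm1, Gstm2, Gstm3, Gstm4, Gstm5, Gstm6 or Gstm7. All 7 were found among the 50600 genes of the count table, and 29 of their transcripts were found in the transcript table. Of the 7 genes, 6 had enough reads to be tested between mutant groups, where 17638 genes were tested in all, and Gstm3 had too few.

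RNA of whole olfactory epithelium, the tissue of the nose that holds the odour-sensing neurons, was sequenced in 7 libraries from mice at postnatal day 7. The neo group (Amigo1neo/neo, 3 libraries) carries a neomycin cassette in exchange for the coding region of Amigo1 on both chromosomes. The KO group (Amigo1-/-, 3 libraries) lacks Amigo1 without being labelled as carrying the cassette, and WT (Amigo1+/+) is 1 library. Amigo1 encodes a cell adhesion protein, and its loss is shared by neo and KO. The comparison of neo with KO asks what the cassette adds, and the comparisons with WT ask what the mutant alleles change as a whole.

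Glutathione transferases join the tripeptide glutathione to electrophilic compounds, which makes them more soluble and ready for export. Mu-class enzymes are cytosolic dimers, and their genes lie side by side in mammalian genomes. In the olfactory epithelium such enzymes belong, with cytochrome P450 and sulfotransferase enzymes, to the detoxifying equipment of sustentacular cells (the supporting cells of the sensory layer) and of Bowman glands. They act on inhaled chemicals and on odorants.

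On GRCm38, the cluster filled 149 kb of chromosome 3, from 107895821 to 108044894. In the order of the chromosome it ran Gstm5, Gstm7, Gstm6, Gstm3, Gstm2, Gstm1 and Gstm4. Gstm5 (ENSMUSG00000004032.10) lay on the plus strand, and the other 6 lay on the minus strand. Gstm4 (ENSMUSG00000027890.17) was nearest to Amigo1, at a distance of 141 kb, and Gstm5 was farthest, at 288 kb. Gstm1 (ENSMUSG00000058135.12) spanned 108012255 to 108017973 and lay 168 kb from Amigo1. The main coding transcript of a member is here its consensus coding (CCDS) transcript with the highest mean level. It had 8 exons in every member. For Gstm5 it was Gstm5-201, which stood below another coding transcript, Gstm5-204, in every library.

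The members are close copies of one another, which bears on every value given for them, since a read can only be assigned to 1 gene where the copies differ. To show how close, coding bases 61 to 120 of Gstm1, counted from the A of its start codon, are printed beside the bases of each other member that align with them. The stretch ran from exon 2 into exon 3, with 52 of its 60 bases in exon 2, in all 7 genes. In Gstm1 its outer bases lay at chr3:108016941-108017402 on the minus strand, with the intron between the exons included. The sequences are GENCODE vM21 transcript sequences, 5′ to 3′, and capitals mark bases that differ from Gstm1.
Gstm1: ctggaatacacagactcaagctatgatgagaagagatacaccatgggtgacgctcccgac
Gstm7: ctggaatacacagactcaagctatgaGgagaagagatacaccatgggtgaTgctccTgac
Gstm4: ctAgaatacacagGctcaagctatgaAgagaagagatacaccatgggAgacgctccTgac
Gstm2: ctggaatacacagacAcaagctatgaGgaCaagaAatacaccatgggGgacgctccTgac
Gstm6: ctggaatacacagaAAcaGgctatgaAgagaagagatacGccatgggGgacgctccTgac
Gstm3: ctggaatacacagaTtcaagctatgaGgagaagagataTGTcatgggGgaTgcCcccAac
Gstm5: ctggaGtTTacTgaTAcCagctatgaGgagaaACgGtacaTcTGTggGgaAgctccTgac

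In these 60 bases Gstm7 differed from Gstm1 at 3 positions, Gstm4 at 5, Gstm2 at 6, Gstm6 at 7, Gstm3 at 9 and Gstm5 at 18. In Gstm5 the stretch began at its own coding base 70. Over the whole coding sequence, the 21 pairs of members shared between 69.7% and 89.5% of aligned bases, with a median of 82.3%. Gstm1 and Gstm3 were the closest pair, at 89.5%. Every pair with Gstm5 was at 72.6% or less, and every pair without it was at 79.1% or more. Gstm5, which stood alone on the plus strand, was therefore also the most divergent member in sequence.

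Stretches shared with other genes were counted in windows of 50 bases along the main transcript of each member. In Gstm4, Gstm5 and Gstm7, 100% of windows were found in no other gene. The share was 90.6% in Gstm2, 88.2% in Gstm6, 76.9% in Gstm1 and 71.2% in Gstm3. The windows of Gstm1 that were not unique recurred in Gstm2, in Gstm3 and in the genes Gm6665, Gm8834 and Gstm2-ps1. In windows of 100 bases the unique share was 99.4% in Gstm2, 97.5% in Gstm6, 92.3% in Gstm1 and 86.2% in Gstm3. Counts of these 4 genes are uncertain where reads fall in shared stretches, the less so the longer the stretch a read covers. The deposited counts set reads with several placements apart, whereas the deposited TPM (a share of all transcripts that takes account of transcript length) came from RSEM, a tool that divides such reads among genes.

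TPM and counts lay farthest apart in Gstm2. Its TPM for each count and kilobase was 1.85 times that of the median gene, and Gstm1, with fewer unique windows, stood at 1.26 times. The cause was not tested. Gstm4, Gstm5, Gstm6 and Gstm7 stood between 1.03 and 1.12 times, and Gstm3 had too few reads for the ratio. Levels across genes are given as TPM, and tests between groups use the counts.

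**Figure D1:**
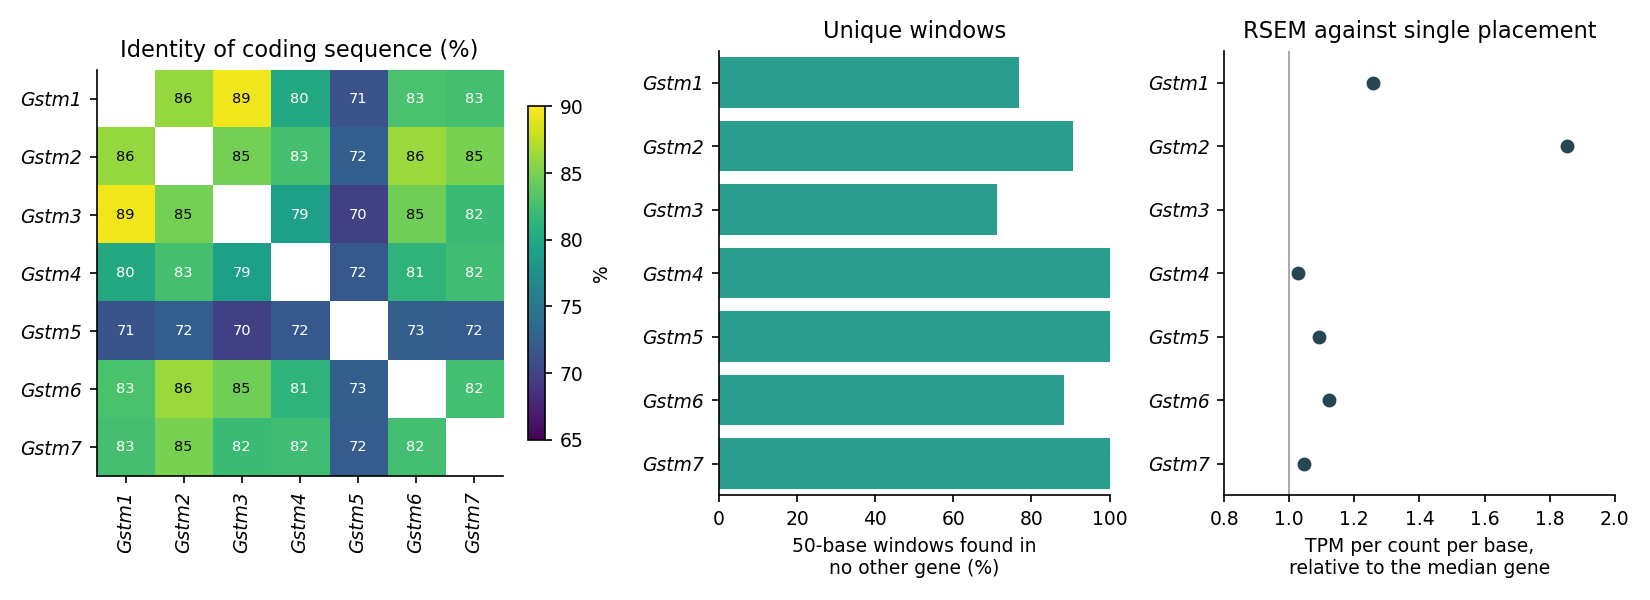
Similarity among the 7 members. Left, percent identity of aligned coding bases for each pair; middle, percent of 50-base windows of the main transcript found in no other gene (bars from 0); right, TPM per count per base relative to the median gene (grey line at 1; Gstm3 had too few reads). Gstm5 has the lowest identities, Gstm1 and Gstm3 the highest, and Gstm2 stands farthest from the median gene at 1.85.

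Gene counts totalled 14879415 to 21343058 per library. The label of the mutants held, with 11, 5 and 1 counts of Amigo1 in neo, 0, 8 and 16 in KO and 744 in WT. All 8 sustentacular markers were detected, with a summed level of 5167 to 6590 CPM (counts scaled to library size) in neo, 4339 to 5423 in KO and 5480 in WT, so sustentacular transcripts were present in each library. Neo replicate 1 stood apart. Its 6 Bowman gland markers summed to 362 CPM, against 20628 and 29045 CPM in the other neo libraries, 28625 to 50606 in KO and 31670 in WT, and its 5 skeletal muscle markers summed to 854 CPM, against at most 14.5 elsewhere. By the sex-specific transcripts Xist and Ddx3y, neo replicate 1 and WT were female and the other 5 libraries male. The 5 fibroblast markers summed to 3234 to 6066 CPM in neo, against 7955 to 12158 in KO, and the 8 markers of mature olfactory neurons to 3439 to 3908 CPM in neo, against 2996 to 3323 in KO. The ciliated, basal, smooth muscle, glial, macrophage and erythroid marker sums overlapped between neo and KO, although 4 of the 5 macrophage markers had positive log2 fold changes of neo over KO with an unadjusted p under 0.05 (median of the list 0.61). Such a p was reached by 1643 of all 17638 genes tested. It was also reached by 2 of 5 fibroblast markers, both lower in neo, and by 2 of 8 sustentacular markers, both higher. Every other marker list had at most 1 such gene. No gene of any marker list passed the test in any comparison. A code within the sample names is the same for KO and WT and differs for neo, and what it stands for cannot be told apart from the neo allele. The labels leave unsaid whether any 2 libraries share an animal, and the p-values measure the spread between these libraries, which may be technical.

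Gstm1 was by far the most abundant member. Its level was 796, 708 and 753 TPM in neo replicates 1 to 3, 561, 714 and 677 TPM in KO replicates 1 to 3, and 754 TPM in WT. KO replicate 1 was the lowest library, and the groups overlapped. The gene ranked between 155th and 193rd of all 50600 genes, within the top 0.381% in every library. Gstm1 encodes the predominant mu-class enzyme of mouse liver, and it accounted for 60.6% to 66.1% of the summed Gstm TPM in each library here.

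Gstm5 and Gstm2 followed well below that level. Gstm5 had 201, 236 and 257 TPM in neo, 189, 172 and 238 TPM in KO and 210 TPM in WT. Gstm2, which encodes another cytosolic mu-class subunit, had 174, 179 and 152 TPM in neo, 144, 163 and 131 TPM in KO and 164 TPM in WT. Gstm5 exceeded Gstm2 in 7 of 7 libraries, by 1.36 times on average, although the ranges of the genes over the 7 libraries overlapped.

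Gstm4 and Gstm7 were roughly an order of magnitude lower. Gstm4 had 15.4, 16.6 and 19.0 TPM in neo, 17.2, 15.7 and 12.6 TPM in KO and 16.3 TPM in WT. Gstm7 had 14.7, 17.0 and 13.5 TPM in neo, 12, 13.5 and 11.5 TPM in KO and 13.5 TPM in WT. On this scale its lowest neo library, at 13.52 TPM, stood just above its highest KO library, at 13.47 TPM, whereas its normalised counts overlapped. Gstm4 was above Gstm7 in 6 of 7 libraries and their ranges overlapped, so these neighbours in the order were not apart beyond their spread.

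Gstm6 and Gstm3 were the least abundant. Gstm6 had 3.23, 2.61 and 3.55 TPM in neo, 3.48, 3.20 and 1.07 TPM in KO and 2.72 TPM in WT, with KO replicate 3 below the rest. Gstm3 had 2, 2 and 1 counts in neo, 4, 1 and 0 counts in KO and 3 counts in WT, where the 0 allows up to 3 counts or 0.166 CPM, counting error only. This is the member with the fewest unique windows, so reads from it may sit among those set apart. On TPM, for which RSEM divides such reads among genes, Gstm3 averaged 0.13 and reached at most 0.31. Its level was at the limit of detection at this depth. The order of means was Gstm1, Gstm5, Gstm2, Gstm4, Gstm7, Gstm6 and Gstm3, and ranges of neighbours in that order were apart except for Gstm5 with Gstm2 and Gstm4 with Gstm7.

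**Figure D2:**
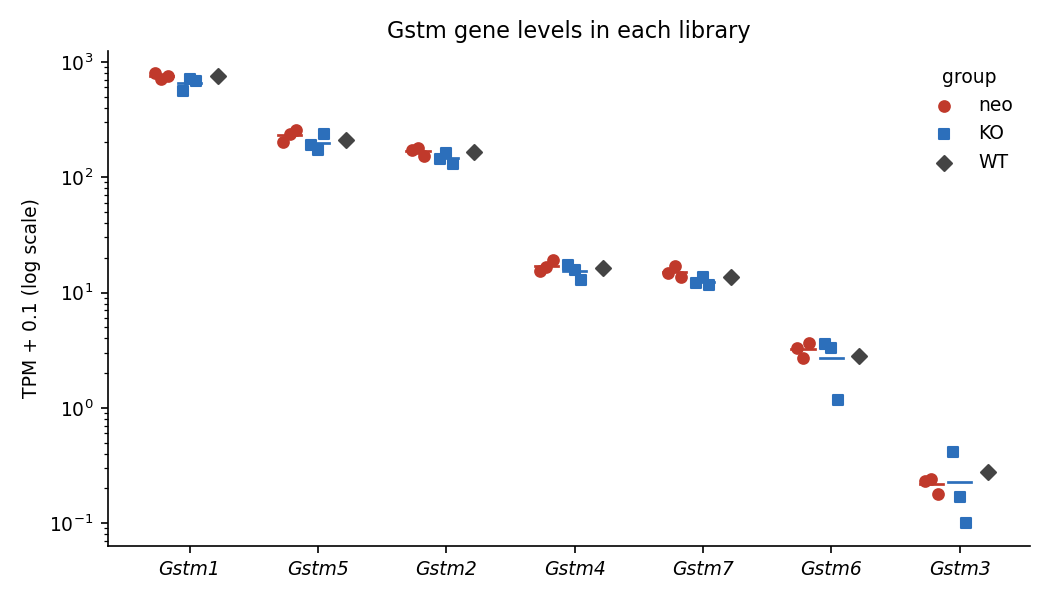
Level of each Gstm gene (TPM + 0.1, log axis) in every library, with genes in order of mean level; red circles are neo, blue squares KO, grey diamonds WT, and short lines mark group means of n = 3. Levels run from 561 to 796 TPM for Gstm1 to 0.31 TPM or less for Gstm3, and for most genes the groups overlie one another.

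The make-up of the family was alike from library to library. Gstm5 supplied 15.9% to 22.2% of the summed Gstm TPM and Gstm2 12.2% to 15.5%. Gstm4 supplied 1.18% to 1.85%, Gstm7 1.07% to 1.46%, Gstm6 0.0999% to 0.376% and Gstm3 at most 0.0335%. Gstm1 made up 63.4 ± 2.56% of the sum in neo and 63.3 ± 2.73% in KO (SD, n = 3 each), with 64.95% in WT.

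Set beside the 21 other glutathione transferase genes of a fixed list, the 7 Gstm genes held 48.6% of the TPM of all 28 genes, averaged over the libraries. Gstm1 ranked first, at 709 TPM. Mgst1, a membrane-bound microsomal transferase, was second at 438 TPM and was below Gstm1 in every library. Gsta4, an alpha-class enzyme that acts on the lipid peroxidation product 4-hydroxynonenal, averaged 162 TPM and stood between Gstm5 and Gstm2. Gstp1, the main pi-class gene, averaged 104 TPM, and its near-copies Gstp2 and Gstp3 stood at 2.57 and 1.33 TPM.

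In the comparison of neo with KO, no tested member passed the threshold. Gstm1 had 477, 511 and 485 CPM in neo replicates 1 to 3, against 415, 487 and 475 CPM in KO replicates 1 to 3. The ranges overlapped, and the log2 fold change of neo over KO was 0.10 (SE 0.10, adjusted p = 0.812, edgeR). Its 95% interval ran from -0.13 to 0.33, which bounds the ratio of neo to KO between 0.914 and 1.25. In bulk tissue, fewer cells of a type and less RNA per cell cannot be told apart, and this holds for every level given here.

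The other members with high counts were bounded less tightly. Gstm5 had 93.3, 139 and 131 CPM in neo, against 111, 93.8 and 134 CPM in KO, with a log2 fold change of 0.10 (95% interval -0.30 to 0.50). Gstm2 had 58.7, 81.1 and 57.5 CPM in neo, against 56.0, 62.6 and 54.9 CPM in KO, with a log2 fold change of 0.19 (95% interval -0.14 to 0.51). Both pairs of groups overlapped, and in each gene a single neo library, replicate 2, was the highest of the 6.

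Of the low members, Gstm4 alone had a negative fold change, of -0.07 (95% interval -0.44 to 0.29). Without neo replicate 1, the library that stood apart, it was 0.05. On deposited TPM it was 0.17, where the median of all genes tested was itself 0.094. Gstm4 thus had no stable direction between these settings. Gstm7 had 10.1, 13.8 and 11.97 CPM in neo, against 10.8, 10.9 and 9.67 CPM in KO, with a log2 fold change of 0.19 (95% interval -0.17 to 0.55). Gstm6 had a log2 fold change of 0.24 with the widest interval, -0.65 to 1.14, and without KO replicate 3 it was -0.11.

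In all, 0 of the 6 tested members passed an adjusted p of 0.05 (edgeR with Benjamini-Hochberg adjustment over all genes), where 0.017% of all tested genes passed, 3 of 17638. With so few calls in the whole table, 0 of 6 says little about the members beyond their intervals. Adjusted p-values ran from 0.728 for Gstm2 to 0.925 for Gstm4 (edgeR). An unadjusted p under 0.05 was reached by 0 members and by 1643 of all genes, and DESeq2, which called 101 of 17607 genes, called 0 members as well. The CPM ranges of neo and KO overlapped in all 6 members, where 15.6% of all tested genes had groups that did not overlap. Fold changes were positive in 5 of 6 members with a median of 0.14, against a median of -0.00221 over all genes tested, 49.6% of which were positive. Without neo replicate 1 the members' median was 0.26 and again 0 of 6 were called, with adjusted p-values of at least 0.433 (edgeR). Without neo replicate 2 the median was 0.0446, with Gstm2 at 0.0137, so the size of the members' median rested on single neo libraries.

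The authors' deposited table, which gives KO over neo, listed 0.429% of its genes past the same threshold. For Gstm1 the authors' deposited table gave a log2 fold change of -0.10 for KO over neo, with an adjusted p of 0.999. In the authors' deposited table the other members had adjusted p-values of 0.96 or more, and Gstm3 had none.

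The cluster lies upstream of Amigo1, and the protein-coding genes between them give the setting for these values. From the cluster towards Amigo1 they were Ampd2, an AMP deaminase gene, Gnat2, the cone transducin gene, Gnai3, an inhibitory G protein subunit gene, and Gpr61, an orphan receptor gene. Gnai3 had 143, 146 and 149 CPM in neo, against 161, 157 and 161 CPM in KO. These groups did not overlap, and the log2 fold change of -0.13 (95% interval -0.30 to 0.05) did not pass the test (adjusted p = 0.659, edgeR). Ampd2, Gnat2 and Gpr61 had log2 fold changes of -0.16, -0.61 and -0.10, with intervals that included 0. Eps8l3, an EPS8-like gene on the far side of the cluster, was below the count filter, at no more than 0.213 CPM in any library.

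**Figure D3:**
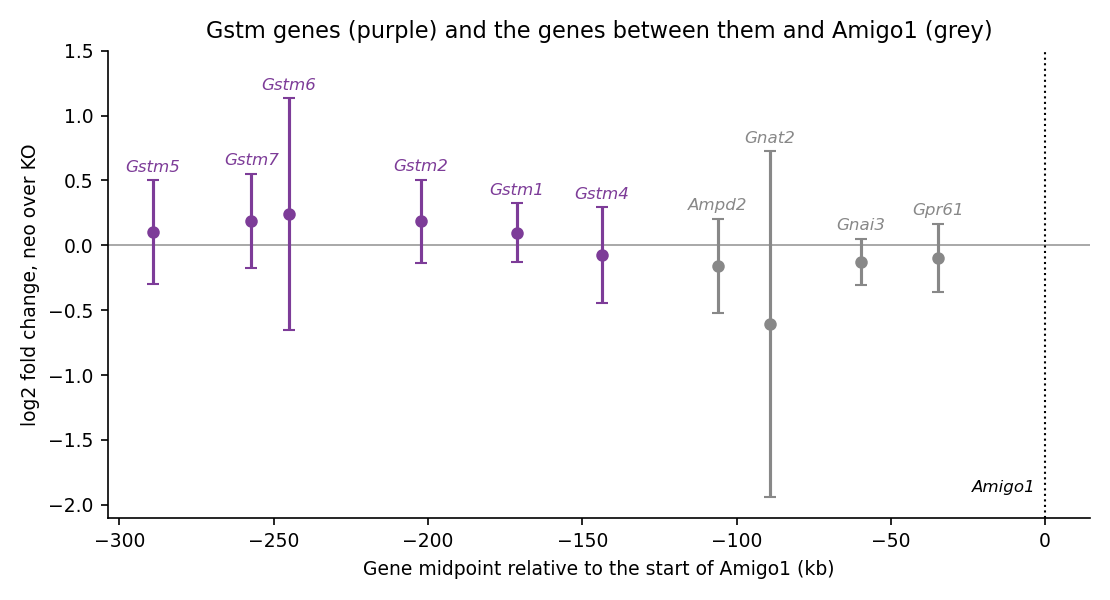
Log2 fold change of neo over KO with its 95% interval (edgeR, n = 3 libraries each), plotted at the distance of each gene's midpoint from the start of Amigo1 (dotted line), for the 6 tested Gstm genes (purple) and the 4 genes between the cluster and Amigo1 (grey). Every interval includes 0, and it is narrowest for Gnai3 and Gstm1.

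KO was compared with WT over all 7 libraries, and the spread of the single WT library was assumed to match that of the mutants. Amigo1 itself, lost in KO, had a log2 fold change of -6.24 and did not pass. A member not called is therefore not shown to be unchanged. Of the 6 tested members 0 were called, where 0.00523% of all tested genes were, and adjusted p was 1 for each of the 6 (edgeR). An unadjusted p under 0.05 was reached by 0 members and by 139 of 19123 genes. Gstm1 had 415, 487 and 475 CPM in KO, against 506 CPM in WT, with a log2 fold change of -0.14 (95% interval -0.46 to 0.18). The other log2 fold changes of KO over WT were -0.14 for Gstm2, -0.09 for Gstm4, 0.02 for Gstm5, -0.11 for Gstm6 and -0.17 for Gstm7. Sex differed between these groups as well, and WT was female where all KO libraries were male, so sex and genotype cannot be told apart here.

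Neo was compared with WT in the same fit and shares the WT library with the comparison of KO. Amigo1 did not pass here either, at a log2 fold change of -6.81. Of the 6 tested members 0 were called, where 0.0105% of all tested genes were, with an adjusted p of 0.99994 for each of the 6 (edgeR). An unadjusted p under 0.05 was reached by 0 members and by 567 of 19123 genes. Gstm1 had 477, 511 and 485 CPM in neo, against 506 CPM in WT, a log2 fold change of -0.04 (95% interval -0.37 to 0.28). The other log2 fold changes of neo over WT ran from -0.17 for Gstm4 to 0.13 for Gstm6. With 1 WT library the intervals were wide, and for Gstm6 the ratio of neo to WT was bounded only between 0.457 and 2.63.

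Among the genes between the cluster and Amigo1, a change against WT was called in Gpr61, the one nearest to Amigo1. Gpr61, at a distance of 31.5 kb, had 28.9, 23.3 and 24.9 CPM in neo and 27.0, 27.6 and 28.0 CPM in KO, against 0.0460 CPM in WT, which is a single count. Its log2 fold change over WT was 9.03 in KO and 8.93 in neo (edgeR), so the mutant groups were alike in this. Gnai3, the next gene towards the cluster, stood at 130 CPM in WT, against 143 CPM or more in every mutant library, and did not pass (adjusted p = 1 for KO, edgeR). Gstm4, the member closest to Amigo1, had 12.4, 17.9 and 14.9 CPM in neo and 17.0, 16.5 and 14.2 CPM in KO, and the WT value of 16.9 CPM lay inside both ranges.

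The transcripts of the members were compared between neo and KO on log2(TPM + 0.1). Of the 29 listed, 13 averaged 1 TPM or more, 17 passed the filter of a mean of 0.5 TPM, and 5 were listed at 0 in every library. None of the 17 passed an adjusted p of 0.05 (limma), where 0% of 44981 transcripts did. The median of all transcripts was itself shifted by 0.13 towards neo on this scale, so fold changes are also given relative to it. Gstm1 was nearly all Gstm1-201, the full-length coding transcript, at 86.2% to 98.8% of the gene's TPM in each library. The short non-coding transcript Gstm1-204 was listed at 0 in neo replicate 1 and KO replicate 1 and held up to 12.4% elsewhere. Gstm1-202, a shorter coding form, held 1.23% to 2.48%. Gstm2 was 98.3% or more Gstm2-201, with the retained-intron form Gstm2-203 at 0.79 to 2.36 TPM, and Gstm6 was 73.4% or more Gstm6-205.

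Gstm5 was divided between a pair of coding transcripts. Gstm5-204, whose 5′ end lies 426 bases inside the gene, had 134, 181 and 198 TPM in neo, 98.3, 109 and 169 TPM in KO and 131 TPM in WT. Gstm5-201, the full-length form, had 63.2, 54.4 and 57.8 TPM in neo, 88.6, 62.6 and 67.9 TPM in KO and 77.3 TPM in WT. Gstm5-204 made up 73.6% of the gene on average in neo and 62.2% in KO, and 62.4% in WT. The groups overlapped, since the share in KO replicate 3, at 70.8%, exceeded that in neo replicate 1, at 66.8%. The log2 fold change of neo over KO was 0.47 for Gstm5-204, or 0.35 relative to the median, and -0.31 for Gstm5-201, or -0.43 relative to it, and neither passed (adjusted p = 0.868 for both, limma).

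Gstm4 was spread over 3 coding transcripts. Gstm4-201, the longest, had 6.98, 7.02 and 4.99 TPM in neo, 10.9, 8.50 and 8.22 TPM in KO and 13.6 TPM in WT. All 3 neo libraries were below all 3 KO libraries, and WT was highest. As a share of the gene, Gstm4-201 was 45.3%, 42.4% and 26.3% in neo, 63.5%, 54.3% and 65.1% in KO and 83.5% in WT. Its log2 fold change of neo over KO was -0.54 (95% interval -1.08 to 0.00426), or -0.66 relative to the median, with an unadjusted p of 0.0514 and an adjusted p of 0.868 (limma). The shorter Gstm4-203 had 4.18, 6.67 and 6.65 TPM in neo, 0.97, 6.14 and 3.56 TPM in KO and 0.87 TPM in WT. Gstm4-202 had 4.25, 2.87 and 7.32 TPM in neo, 5.29, 1.02 and 0.84 TPM in KO and 1.83 TPM in WT. For both of these shorter forms neo and KO overlapped.

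Gstm7-201, the full-length coding transcript of Gstm7, was the other transcript without overlap. It had 12.1, 12.8 and 13.3 TPM in neo, 9.66, 10.3 and 9.71 TPM in KO and 13.1 TPM in WT. Neo was above KO in every library, and WT lay within the neo range. The log2 fold change of neo over KO was 0.36 (95% interval 0.01 to 0.71), or 0.24 relative to the median, with an unadjusted p of 0.0454 and an adjusted p of 0.868 (limma). The short form Gstm7-204 had 1.19, 4.16 and 0 TPM in neo, 0, 0.68 and 1.15 TPM in KO and 0.34 TPM in WT, and its groups overlapped. Groups without overlap were found in 2 of the 17 tested Gstm transcripts, where 11.2% of all tested transcripts had such groups, so that count is near the background. Without neo replicate 1, 15 Gstm transcripts were tested, 3 had an unadjusted p under 0.05 and 0 were called (limma), beside 2736 of all 43458 transcripts with such a p.

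**Figure D4:**
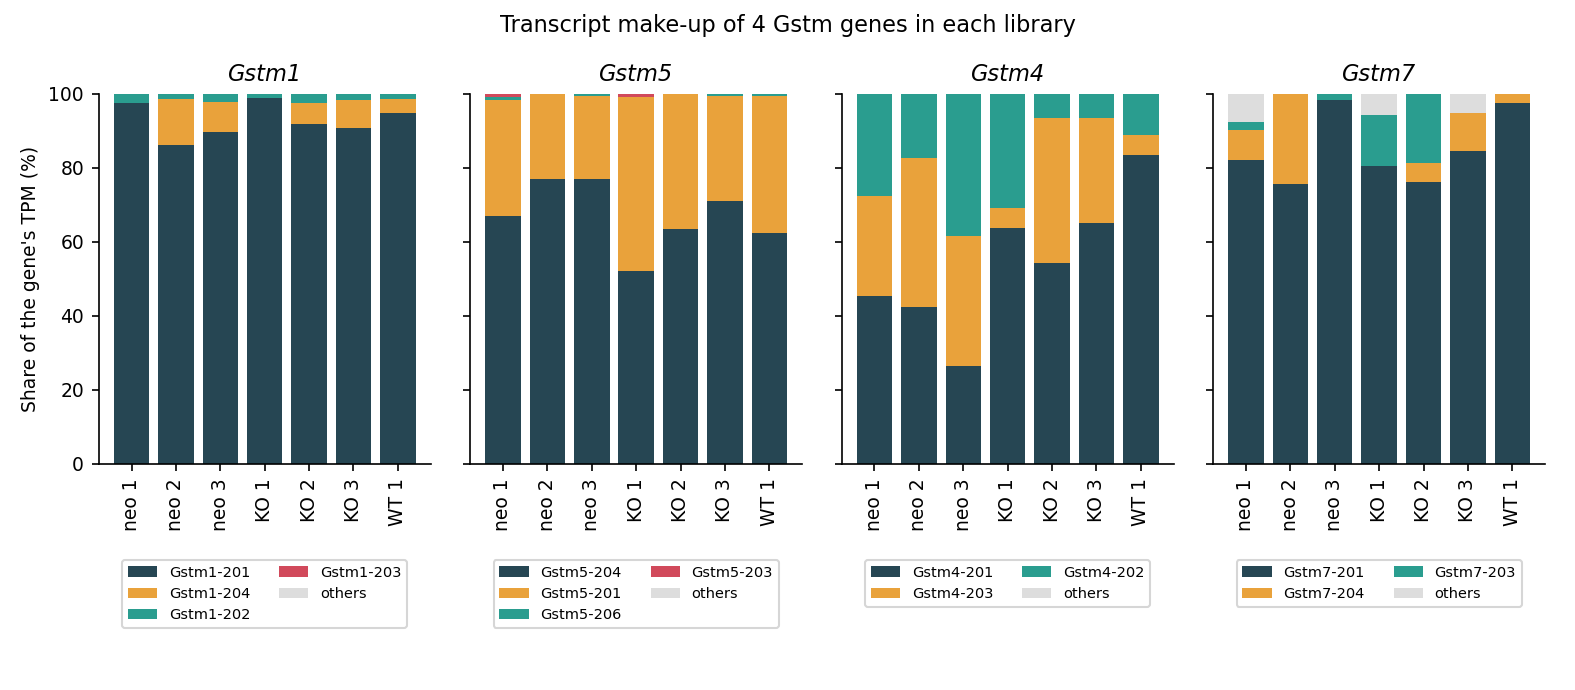
Share of each gene's TPM held by its transcripts in every library (stacked bars from 0 to 100%), for Gstm1, Gstm5, Gstm4 and Gstm7, with neo libraries left, KO in the middle and WT right. Gstm1 is nearly uniform, whereas Gstm4-201 holds 26.3% to 45.3% in neo, 54.3% to 65.1% in KO and 83.5% in WT. The shares are RSEM estimates, and the level of Gstm4-201 did not pass the test of neo against KO (adjusted p = 0.868, limma).

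The summed counts of the 7 members were also read as 1 value per library. They made up 0.0728%, 0.0712% and 0.0710% of gene counts in neo, 0.0588%, 0.0676% and 0.0666% in KO and 0.0724% in WT. All neo libraries were above all KO libraries, by a ratio of 1.11, and the exact permutation test gave p = 0.1, the smallest that 3 against 3 libraries allow (two-sided). Divided by the effective library size after TMM normalisation, the shares were 0.0653%, 0.0765% and 0.0703% in neo, against 0.0612%, 0.0673% and 0.0689% in KO, and the groups overlapped (exact permutation p = 0.4). The groups were also apart on summed TPM and on gene counts without Gm42418 (exact permutation p = 0.1 for both). Of these 4 settings only TMM scaling brought them to overlap. The other settings are all plain shares of a total, without scaling for the make-up of the library, so they are not independent of one another. On gene TPM the median log2 fold change of all genes tested was itself 0.094 towards neo. Without neo replicate 1, the library nearly devoid of Bowman gland transcripts, the difference in the share of gene counts was 0.00676 percentage points, against 0.00733 with it. Without KO replicate 1, the library with the lowest share, the difference was 0.00454.

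Per count of the 8 sustentacular markers, the difference had the other sign. The ratio of summed Gstm counts to marker counts was 0.126, 0.116 and 0.121 in neo, 0.113, 0.134 and 0.159 in KO and 0.130 in WT. KO held both the lowest and the highest value, and the ratio of neo to KO was 0.897 (exact permutation p = 0.5, two-sided). The difference of neo minus KO was -0.0139 with all libraries, -0.00207 without KO replicate 3 and -0.0249 without KO replicate 1. KO replicate 3 had the fewest marker counts relative to its Gstm counts. It had 7994 counts of the lipid-binding protein gene Sec14l3, against 12765 to 20298 in neo, 16117 and 17617 in the other KO libraries and 17975 in WT. The markers Cyp2g1, at 16623 counts, Cyp2a5 and Ermn were also lowest in this library, whereas Cyp1a2, Cbr2, Sult1c1 and Muc2 were not. These counts are not scaled for library size.

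**Figure D5:**
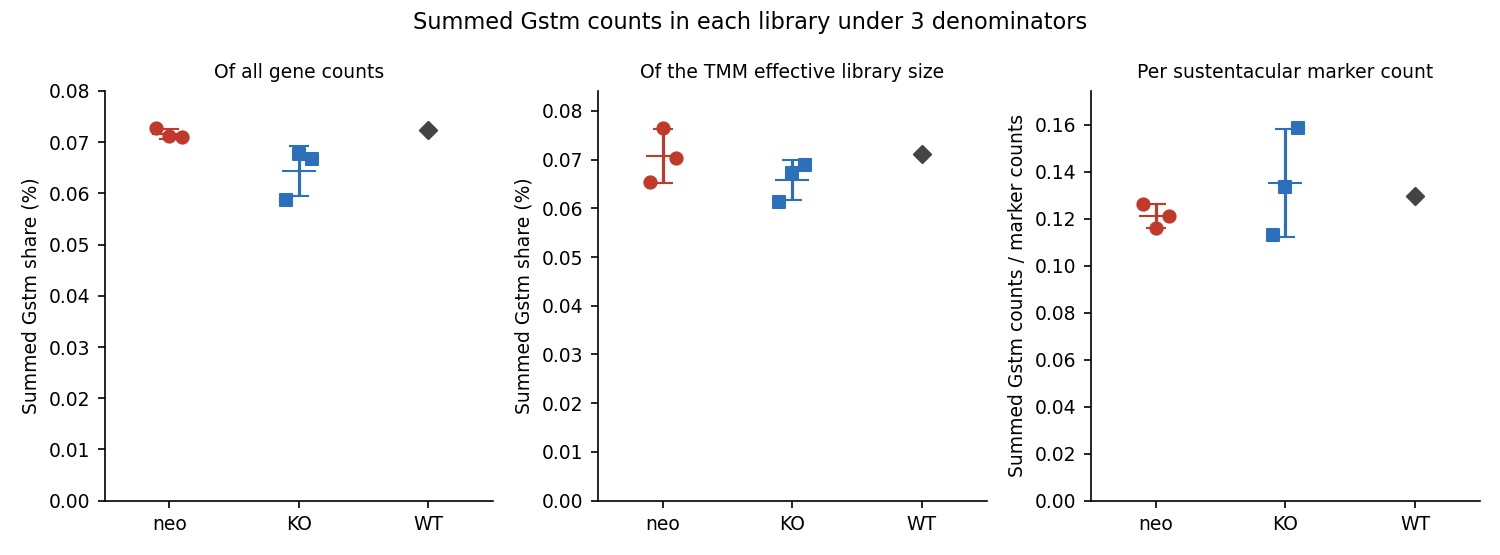
Summed Gstm counts in each library as a share of all gene counts (left), as a share of the TMM effective library size (middle) and per sustentacular marker count (right); horizontal marks and bars are the mean and SD of n = 3, and WT is 1 library. Neo and KO are apart on the left and overlap in the middle and on the right.

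The genes that work with the Gstm enzymes were read from fixed lists, and no gene of these lists passed the test in any of the 3 comparisons (edgeR). Among the 21 other glutathione transferases, 18 were tested between neo and KO, with 12 positive and 6 negative fold changes and a median of 0.08. None had an unadjusted p under 0.05. Mgst2, a microsomal enzyme that can also make leukotriene C4, had the smallest p, with 5.83, 7.88 and 5.16 TPM in neo, 5.37, 2.40 and 4.33 TPM in KO and 3.10 TPM in WT (log2 0.77, adjusted p = 0.558, edgeR). The theta-class gene Gstt2 had 6.78, 6.91 and 7.08 TPM in neo, against 5, 5.32 and 4.92 TPM in KO (log2 0.34, adjusted p = 0.668, edgeR).

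Supply of glutathione was read from 18 genes of its synthesis, recycling and breakdown, all tested, of which 10 had positive and 8 negative fold changes of neo over KO with a median of 0.01. Gclc and Gclm, the catalytic and modifier subunits of the rate-limiting ligase, had log2 fold changes of -0.35 and 0.01. Ggt7, a gamma-glutamyltransferase family gene, had 73.5, 58.2 and 69.7 TPM in neo, 40.3, 48.7 and 36.2 TPM in KO and 50.8 TPM in WT. Every neo library was above every KO library, and the log2 fold change of 0.54 (SE 0.11) had an unadjusted p of 0.000631 and an adjusted p of 0.34 (edgeR). Dpep1, a dipeptidase that cleaves cysteinylglycine, had a log2 fold change of -0.62 (adjusted p = 0.553, edgeR).

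Among glutathione peroxidases and transporters that export conjugates, 11 of 12 were tested and 5 had an unadjusted p under 0.05, 4 with positive and 1 with negative fold changes, beside 1643 of all 17638 genes with such a p. The export pumps Abcc5 and Abcc1 had log2 fold changes of 0.44 and 0.24 (adjusted p = 0.459 and 0.505, edgeR). Gpx6, the peroxidase known from the olfactory epithelium, had 1056, 1157 and 917 TPM in neo, 770, 637 and 761 TPM in KO and 786 TPM in WT (log2 0.40 for neo over KO, adjusted p = 0.53, edgeR). It was above the level of Gstm1 in every library except KO replicate 2. Gpx3, the secreted plasma peroxidase, had a negative fold change, with 73.6, 54.7 and 37.8 TPM in neo, 86.0, 89.5 and 144 TPM in KO and 86.2 TPM in WT (log2 -1.05, adjusted p = 0.471, edgeR). Fibroblast marker sums, given above, were also lower in every neo library than in every KO library, and their part in the value of Gpx3 was not tested.

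NRF2, encoded by Nfe2l2, is the transcription factor through which electrophiles induce many glutathione transferase genes. All 18 genes of its list were tested, with 5 positive and 13 negative fold changes and a median of -0.06. Me1, which makes NADPH, had a log2 fold change of 0.65, Nqo1, a quinone reductase, 0.44 and Ugdh, which makes UDP-glucuronate, 0.22, with adjusted p-values of 0.384, 0.498 and 0.502 (edgeR). Nfe2l2 itself was at -0.22 (adjusted p = 0.531, edgeR). These were the 4 genes of the list with an unadjusted p under 0.05, a threshold that 1643 of all 17638 genes passed, and they did not share a direction.

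Of 18 other conjugating and carbonyl-reducing enzymes of the nose, 16 were tested, with 13 positive and 3 negative fold changes and a median of 0.21. The sulfotransferase gene Sult1c1 had 625, 540 and 745 TPM in neo, 386, 318 and 413 TPM in KO and 401 TPM in WT, without overlap of neo and KO (log2 0.66, adjusted p = 0.384, edgeR). Sult1a1 and Sult1d1, which encode further sulfotransferases, had log2 fold changes of 0.61 and 0.28 (adjusted p = 0.505 and 0.515, edgeR). Sult1c1 and Cbr2, a carbonyl reductase gene, also stand in the sustentacular marker list, all 8 genes of which had positive fold changes of neo over KO, with a median of 0.26. That median is above the members' own 0.14. The 8 mature olfactory neuron markers were also all positive, with a median of 0.22. So were all tested genes of the basal, smooth muscle, skeletal muscle and erythroid lists. The skeletal muscle sum was high in neo replicate 1 alone, at 854 CPM. It was 2.81 and 2.53 CPM in the other neo libraries, below every KO library. In the fibroblast and Bowman gland lists 4 of 5 and 5 of 6 genes were negative.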

How the data were processed

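Deposited by the authors were gene counts as whole numbers, stranded by the table's name, TPM per gene, and TPM and FPKM per transcript, on GRCm38. Trimmomatic 0.35, STAR 2.5.1b, RSEM and DESeq2 1.18.1 are listed in the submitters' processing notes. The authors' deposited comparison of KO with neo holds log2 fold changes, p-values, a standard error used as a score, and a normalised signal, per the file headers. Gene FPKM was not used. Reads with several placements (14.5 to 19.6%) stand outside the gene counts, and Gm42418, which overlaps ribosomal RNA, took 9.83 to 16.5% of them.

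Counts were tested with edgeR 4.0.16 in R 4.3.3 (TMM, minimum count 10, minimum total 15, robust quasi-likelihood test, two-sided, Benjamini-Hochberg at 0.05 over all genes), on 6 libraries for neo against KO and on 7 otherwise. Transcripts were tested with limma 3.58.1 on log2(TPM + 0.1) at a mean of 0.5 TPM or more. DESeq2 1.42.0, other filters, scalings, pseudocounts and left-out libraries were alternatives. Sums were compared by exact permutation. No 2 neo or KO libraries agreed to within counting noise. Of the gene identifiers, 45737 matched GENCODE vM21, with equal coordinates. Tests were tried on simulated counts first. For neo against KO, 64.3% of the genes changed 2-fold were called there. Of 177 calls 22 were false, a larger share than the threshold of 0.05 aims at. In both comparisons with WT a smaller share of the 2-fold changes was called. The simulation changed many genes and set no library apart, so these shares need not hold for the data here. Members, gene lists and alternatives were chosen with earlier results of these data known. Named were all members, their transcripts averaging 1 TPM or more, the genes between them and Amigo1, up to 4 genes with the smallest p per list, and the genes most like each member, of which 1 for Gstm1 is not reported here. Gclc, Gclm, Cbr2, Gstp1 and its copies were named after their values were seen.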

Additional observations from a re-analysis of the deposited data

How the results depend on the processing

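The count of Gstm genes called was 0 in each of the 3 comparisons under every alternative run, and the count of Gstm transcripts called was 0 for neo against KO, the comparison in which transcripts were tested. Leaving out each library in turn kept both at 0. Against that, the number of all genes called varied. For neo against KO it was 3, but 40 without a count filter, 1 at 50 counts in 3 libraries, 101 with DESeq2 and 1 to 17 with 1 library left out, being 17 without neo replicate 1 and 1 without any of neo replicate 3 and KO replicates 2 and 3. For KO against WT it was 1, but 2 without a filter, 6 with only those groups in the fit, 3 with limma at a pseudocount of 1 and 1 to 4 with 1 library left out, being 4 without neo replicate 1 and 2 without neo replicate 3. For neo against WT it was 2, but 7 without a filter, 4 with limma at a pseudocount of 1 and 2 to 6 with 1 library left out, being 6 without neo replicate 1 and 5 without KO replicate 1. Of all transcripts 0 were called, but 1 at a pseudocount of 1, 1 with all 7 libraries in the fit and 0 to 1 with 1 library left out.

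Log2 fold changes of members near 0 changed sign under some settings. On TPM (limma, pseudocounts 0.1 and 1), Gstm4 stood at 0.17 and 0.16 for neo over KO and at 0.051 and 0.0486 for neo over WT, and Gstm5 at -0.0906 and -0.0901 for KO over WT. The medians of all genes tested on this scale were themselves 0.094 and 0.083 for neo over KO. They were -0.093 and -0.074 for KO over WT, and 0.00044 and 0.005 for neo over WT. With 1 library left out, neo over KO ran from -0.21 to 0.0544 for Gstm4, -0.00876 to 0.26 for Gstm5 and -0.11 to 0.55 for Gstm6. KO over WT ran from -0.12 to 0.14 for Gstm5 and -0.42 to 0.25 for Gstm6, and neo over WT from -0.12 to 0.14 for Gstm2 and -0.0914 to 0.14 for Gstm7. The lowest adjusted p of a member over the alternatives was 0.433 for neo over KO, 0.9997 for KO over WT and 0.829 for neo over WT. The cause was not tested.

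Same-numbered neo and KO libraries correlated at -0.11, -0.05 and 0.19 in their deviations from the group means, so the numbers were not taken to pair the samples. With a replicate block the genes called were 1 for neo against KO and 1 for neo against WT, Gstm5 stood at -0.16 for KO over WT, and for neo over WT Gstm5 stood at -0.0711, Gstm7 at -0.0813 and Gstm2 at -0.063. With same-numbered libraries paired, an exact sign-flip test of the summed share gave p = 0.25 (two-sided). This is the smallest p that 3 pairs allow, so it could not have been lower. Gstm3 had a fitted value only without the count filter, and depth limits what can be said of it.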

Other observations

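The genes whose levels over the 7 libraries ran closest to each member were sought by the root mean square difference of centred log2 CPM, among 16398 genes with a mean of at least 1 CPM. Among the genes closest to Gstm1 were Actl6a, a chromatin remodelling subunit gene (0.0266), Dynll1, a dynein light chain gene (0.0282), Ackr4, an atypical chemokine receptor gene (0.0343), and Anapc2, a subunit gene of the anaphase-promoting complex (0.0349). The median over all genes was 0.203. Closest to Gstm2 were Rasgrp2 and Prss33, to Gstm4 Mmp15 and Orai3, to Gstm5 Efcab10 and Tfeb, to Gstm6 Myh11 and Sec14l3, and to Gstm7 Dis3l2 and Susd4. No Gstm gene was among the closest genes of another. With 7 libraries, several of which share a group, this is a description only.

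Promoter windows of 250 bases before each annotated start (RefSeq, GRCm38.p6) were available for all 7 members, 12 windows in all. The antioxidant response element core TGACNNNGC, searched on both strands, was in 1 window of Gstm5, at -42 from the start, and in 1 window of Gstm7, at -129. It was in 10.2% of all 32851 windows. The TATA box letters TATAAA, also searched on both strands, were in 1 window of Gstm1, at -30, and in 1 of Gstm7, at -231, and in 12.4% of all windows. The Gstm5 element and the Gstm7 TATAAA lay in the window nearest to the 5′ end of the main transcript. The Gstm1 TATAAA and the Gstm7 element lay before another annotated start of the gene. The matches of these motifs did not overlap.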
